A study of Mus musculus with 6 samples.

Results

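The 9 genes described here are Krt8, Krt18, Krt19, Epcam, Cdh1, Cldn6, Wfdc2, Rhox5 and Hmga2, a set of epithelial, junctional and embryonic genes used to tell H22 tumor cells from the other cells of the tumor. They were found by symbol among the 34099 genes of the single-cell count tables, and each symbol had a single row. H22 is a murine hepatocellular carcinoma (HCC) cell line that was passaged as pooled ascites before it was injected into the liver of wild-type male C57BL/6J mice. Liver tumors came from 6 mice, 3 of them control and 3 stress, and each mouse gave 1 10x Genomics library of single cells. Stress mice had gone through chronic unpredictable mild stress (CUMS), and control mice carried the same tumor cells without any stressor. The question of the comparison was how chronic stress changed the tumor and its surroundings.

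A unique molecular identifier (UMI) marks every RNA molecule caught, and its amplified copies count as 1. The authors' annotation held 58794 cells, of which 29638 were tumor cells in 10 clusters, and between 149558935 and 187728350 UMIs per mouse. Tumor cells had a median of 21971 to 32523 UMIs per mouse. Pairs of libraries shared 13 to 40 cell barcodes. The control libraries were counted with Cell Ranger 9.0.0 and the stress libraries with 7.1.0, so the software version cannot be told apart from stress. Levels are given as UMIs of the gene per 1000000 UMIs of the same cells (CPM). A UMI stands for 1 captured molecule whatever the length of the RNA, so levels were not divided by gene length.

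Krt8, Krt18 and Krt19 encode keratins, the intermediate filament proteins of simple epithelia. Keratins form filaments only as pairs of a type II and a type I chain. Krt8 is the type II partner of Krt18 in hepatocytes, and Krt19 is a type I keratin of bile duct cells and liver progenitors. Epcam and Cdh1 (E-cadherin) are adhesion proteins of epithelial cells, and Cldn6 is a tight junction claudin of embryonic epithelium. Wfdc2 is a secreted protein with protease inhibitor domains. Rhox5 is a homeobox gene of the X chromosome that is known from testis and placenta, and Hmga2 is a chromatin protein of embryonic tissue. Hepatocytes normally express Krt8, Krt18 and Cdh1, whereas Hmga2 and Cldn6 are largely silent in adult tissue and return in many tumors.

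The genes were chosen by their measured levels in tumor cells against other cells, so their differences between tumor cells and other classes are a description and were not tested. Of the 9, 7 were abundant in tumor cells, and Krt8 and Cdh1 were not despite that choice. Krt18, Krt19, Epcam, Cldn6, Wfdc2, Rhox5 and Hmga2 reached pooled levels of 73.6 to 1037 CPM in tumor cells. Krt8 reached 5.82 CPM and Cdh1 0.462 CPM there, and both had higher means over mice in other classes. Another class also had the highest mean for Epcam (HSCs, the hepatic stellate cell class) and Krt19 (M-MDSCs, monocytic myeloid-derived suppressor cells), both overlapping tumor cells. The HSC mean for Epcam rested on few cells, and pooled over mice Epcam was lower in HSCs than in tumor cells. Tumor cells also lacked the products of mature hepatocytes. Of 18 hepatocyte markers, 17 lay under 1 CPM in tumor cells, with Alb at 0.140 CPM and Hnf4a at 0.0213 CPM, and the highest was Cebpa at 2.39 CPM. Vim, an intermediate filament gene of mesenchymal cells, stood at 2261 CPM.

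Krt8 and Krt18 are neighbours on mouse chromosome 15 (GRCm38), with Krt8 at 101996698 to 102004482 on the minus strand, Krt18 at 102028180 to 102032027 on the plus strand and 23697 bases between them. Their tumor cell levels lay far apart, and the bases before their annotated starts are shown for that reason. Epcam, on chromosome 17 at 87635979 to 87651129 (plus strand), is shown as the adhesion gene that tumor cells did express. The sequences are from RefSeq (GRCm38.p6), 5′ to 3′, without the bases that GENCODE M21 places inside the gene. Capitals mark the E-box CAGGTG or its reverse complement CACCTG, the letters to which the Snail and Zeb repressors of epithelial genes are known to bind.
Krt8, chr15:102004483-102004592, minus strand: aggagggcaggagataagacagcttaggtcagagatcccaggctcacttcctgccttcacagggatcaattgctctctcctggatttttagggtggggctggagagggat
Krt18, chr15:102027966-102028179, plus strand: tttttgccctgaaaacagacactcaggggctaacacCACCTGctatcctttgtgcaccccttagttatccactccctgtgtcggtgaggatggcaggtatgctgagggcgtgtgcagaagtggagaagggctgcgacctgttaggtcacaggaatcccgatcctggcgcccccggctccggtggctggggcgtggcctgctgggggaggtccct
Epcam, chr17:87635729-87635978, plus strand: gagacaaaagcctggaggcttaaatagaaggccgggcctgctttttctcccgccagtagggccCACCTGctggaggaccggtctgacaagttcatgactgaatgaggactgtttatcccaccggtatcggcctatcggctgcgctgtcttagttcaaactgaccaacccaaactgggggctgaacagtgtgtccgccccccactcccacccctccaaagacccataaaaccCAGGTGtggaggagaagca
Promoter windows were found for 7 of the 9 genes, without Krt19 and Cdh1. In the 250 bases before the RefSeq start, searched on both strands, the E-box letters occurred once in Krt8, Krt18, Cldn6 and Wfdc2, in 2 places in Epcam, and not in Rhox5 and Hmga2. The Krt8 match lay in the part inside the GENCODE gene, which is not printed. The Rhox5 window (X, 37754358 to 37754607) lies far before the GENCODE start given next, the Wfdc2 windows lie inside the GENCODE gene, and the Cldn6 window reaches into it. Among 32817 such windows of all genes, 17.2% held the letters at least once. Neither TATAAA nor its reverse complement TTTATA occurred in any window of the 7 genes, against 12.4% of all windows. Matches are letters only and were not tested for binding.

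Of the other genes, Krt19 lies on chromosome 11 at 100140810 to 100148665 (minus strand), Cdh1 on chromosome 8 at 106603351 to 106670246 (plus strand) and Hmga2 on chromosome 10 at 120361275 to 120476469 (minus strand). Cldn6 lies on chromosome 17 at 23679249 to 23682446, Wfdc2 on chromosome 2 at 164562413 to 164568510 and Rhox5 on chromosome X at 37804842 to 37808876, all on the plus strand (GRCm38).

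Among the keratins, Krt18 was abundant in tumor cells and Krt8 was nearly absent. Krt18 stood at 367, 336 and 365 CPM in tumor cells of control mice 1, 2 and 3 and at 609.5, 428 and 433 CPM in stress mice 1, 2 and 3. For Krt19 the same mice gave 104, 53.2 and 94.5 CPM and 70.6, 51.8 and 50.1 CPM. Krt8 stayed at 6.75, 5.29 and 8.53 CPM in control mice and at 4.77, 2.33 and 6.29 CPM in stress mice. All 6 mice showed the same order, Krt18 above Krt19 above Krt8. The groups overlapped for Krt19 and Krt8, whereas every stress mouse lay above every control mouse for Krt18. Over all tumor cells there were 71.6 Krt18 UMIs for each Krt8 UMI, with 42.7 to 183 by mouse. A Krt18 UMI without any Krt8 UMI was found in 86.1% of tumor cells, and in 84.4% to 88.8% by mouse. Of other type II keratins, Krt7, a keratin of bile ducts, lay at 0.242 CPM and Krt80 at 5.35 CPM in tumor cells. Krt8 overlaps Gm36026, an RNA gene on the opposite strand.

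The Krt8 UMIs of tumor cells were unevenly spread. Of 2454 tumor cells with a Krt8 UMI, 1654 held just 1, while 188 cells held 5 or more and the highest held 102. These 188 cells, a cutoff chosen after the values were seen, made up 0.634% of tumor cells and carried 35% of their Krt8 UMIs. They came from all 6 mice, 49, 25 and 64 of them in control and 26, 4 and 20 in stress mice, and none was called a doublet (2 cells under 1 barcode). In them Krt18 was higher than in the other tumor cells, at 927 against 413 CPM, and this held in each of the 6 mice. Krt19 (127 against 73.2 CPM) and Epcam (188 against 148 CPM) were also higher there in each of the 6 mice. Wfdc2 (879 against 929.7 CPM), Rhox5 (473 against 536 CPM) and Hmga2 (1052 against 1037 CPM) differed less from the other tumor cells. Rhox5 was the lower there in each of the 6 mice. Without these cells Krt8 was at 3.81 CPM in tumor cells, with 4.71, 3.89 and 4.90 CPM in control mice and 3.11, 2.10 and 3.48 CPM in stress mice. The groups, which overlapped over all tumor cells, did not overlap then, a difference that was not tested. The cells were removed by their own Krt8 count, so this separation is no support for a difference. Over all tumor cells 10.1% of all genes tested had stress below without overlap.

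Outside the tumor class, Krt8 was highest in HSCs, at 109.5 CPM over 128 cells. It ranged from 28.3 to 862 CPM between mice there, with 6 to 50 cells per mouse. Of its 215 UMIs, 88.4% came from 13 cells with 5 or more each. In 8 of them, from 3 mice, Col1a1 and Col3a1, the collagen genes of stellate cells, had no UMI. All 3 of them from control mouse 2 were called doublets. These 8 cells held 180 Krt18, 57 Epcam and 38 Cdh1 UMIs, and all 8 had UMIs of Spp1, Sox9 and Cldn3, which are known from bile duct epithelium. They held 2 Hmga2 UMIs and 1 Rhox5 UMI. Krt7 and Krt19, also keratins of bile ducts, had 7 UMIs each in them, in 2 and 5 cells. The hepatocyte marker Alb had 10 UMIs, in 5 of the 8. The other 5 cells, from 4 mice, had collagen UMIs together with Msln and Upk3b, known from mesothelium. In the remaining 115 cells Col1a1 reached 17333 UMIs and Krt8 25. Of these 115 cells, 84 held Spp1, 34 held Sox9 and 6 held Cldn3. Most Krt8 UMIs of this class thus came from a few cells that lacked its collagen markers or carried mesothelial ones beside them.

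In monocytes Krt8 was at 1.60, 1.23 and 1.73 CPM in control mice, at 1.37 CPM in stress mouse 1, and at 19.8 and 15.9 CPM in stress mice 2 and 3. Here too few cells carried it. In stress mouse 2, 6 cells of 1616 held 182 of 189 Krt8 UMIs, and in stress mouse 3, 3 cells of 1749 held 198 of 209. Each of the 9 cells had Krt18 UMIs, 189 in stress mouse 2 and 193 in stress mouse 3. Hmga2, abundant in tumor cells, had 1 UMI in each of these groups of cells. Of the 9 cells, 3 were called doublets. In edgeR's test of all genes in monocytes, stress against control, Krt8 gave a log2 fold change of 3.19 (SE 0.818, adjusted p = 0.232), whereas DESeq2 gave an adjusted p of 0.00589. The edgeR adjusted p ranged from 0.00397 to 0.491 over the other settings run, with stress mouse 1 left out giving 0.00735.

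**Figure D1:**
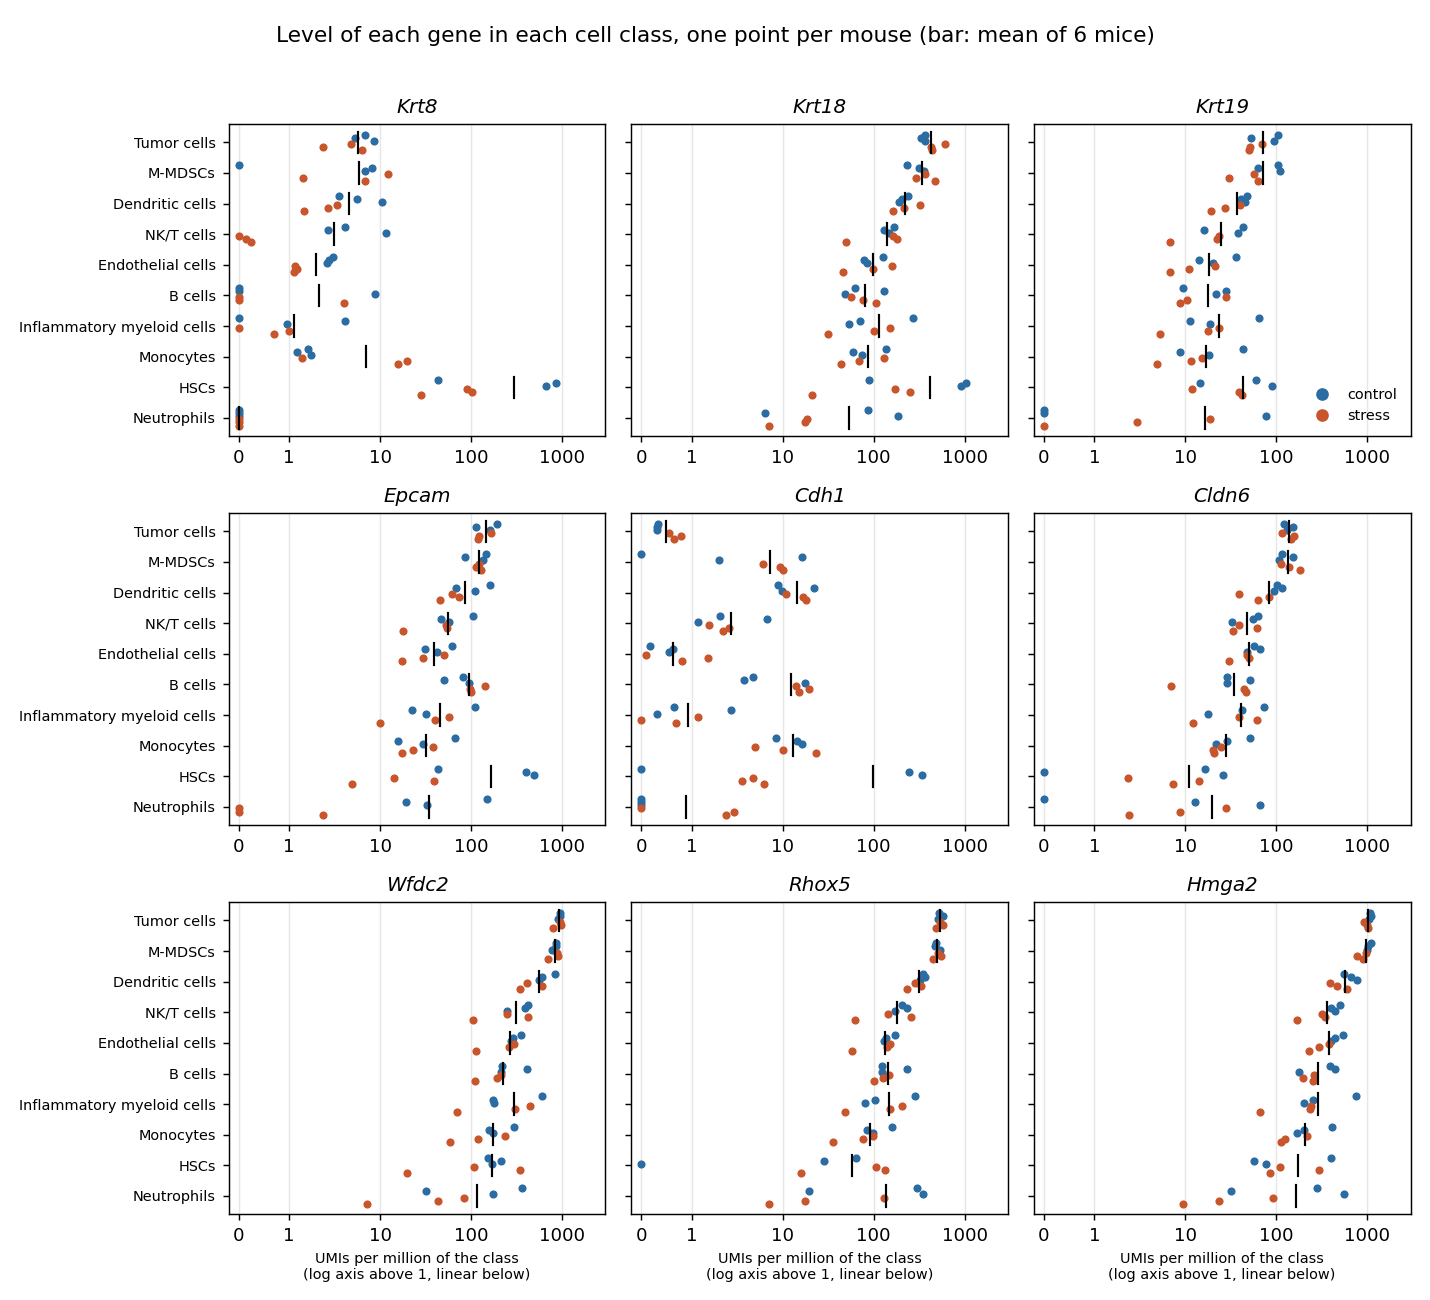
Level of each of the 9 genes (CPM of the class, log axis above 1 and linear below) in each annotated cell class, with a point per mouse (blue control, orange stress) and a bar at the mean of 6 mice. Tumor cells and M-MDSCs lie furthest right for Hmga2, Wfdc2, Rhox5 and Cldn6, whereas Krt8 is furthest right in HSCs and tumor cells have the lowest mean for Cdh1.

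Of the adhesion and junction genes, Epcam and Cldn6 were abundant in tumor cells and Cdh1 was not. Epcam stood at 191, 112 and 159.6 CPM in control mice and at 168, 122 and 118 CPM in stress mice. Cldn6 gave 122, 152 and 130.4 CPM and 115, 156 and 147 CPM. In both genes the groups overlapped. Cdh1 stood at 0.322, 0.310 and 0.314 CPM in control mice and at 0.542, 0.792 and 0.656 CPM under stress, a level below 1 CPM in every mouse with no overlap between the groups. Over the 29638 tumor cells 298 held a Cdh1 UMI, 253 of them just 1, and all 298 also held UMIs of Wfdc2, Rhox5 or Hmga2. Of all tumor cells only 0.577% held none of these, so this tells little about Cdh1.

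By the mean over mice Cdh1 was lowest in tumor cells among the 10 classes, at 0.489 CPM ± 0.206 (SD, n = 6 mice). Other classes overlapped with them, among them ECs (endothelial cells, 0.626 CPM ± 0.503), neutrophils (0.881 CPM ± 1.38) and inflammatory myeloid cells (0.922 CPM ± 0.957). Its highest class mean, 99.3 CPM ± 151 in HSCs, rested on the 8 cells described above, which held 38 of the 51 UMIs. Apart from HSCs it was highest in dendritic cells (DCs), at 14.4 CPM ± 5.39, monocytes, at 12.9 CPM ± 6.52, and B cells, at 12.5 CPM ± 6.69, whose ranges overlapped. Within DCs it was highest in cluster 20. There the 6 mice ranged from 23.0 to 75.4 CPM and 15.8% of 777 cells held a Cdh1 UMI. Of the Cdh1-positive cells of that cluster, 59.3% had no UMI of Wfdc2, Rhox5 or Hmga2, close to 65.9% of all its cells. Among monocyte clusters, cluster 13 had the highest level, at 8.30 to 35.8 CPM by mouse.

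Epcam stood out from the other tumor genes in B cells. In B cells it stood at 80.7, 50.1 and 94.4 CPM in control mice and at 141, 96.7 and 100.4 CPM under stress (log2 fold change 0.65, SE 0.341, edgeR adjusted p = 0.510). Pooled, that was 64.1% of its level in tumor cells, whereas Krt18, Krt19, Cldn6, Wfdc2, Rhox5 and Hmga2 lay at 21.1% to 28.7% of theirs. Of 457 B cells, 24.9% held an Epcam UMI, and 45.6% of those 114 cells had no UMI of Wfdc2, Rhox5 or Hmga2, against 64.6% of all B cells. The Epcam-positive B cells were deeper, with a median of 11892 UMIs against 4720. In endothelial cells (ECs), whose median depth of 4538 UMIs was near that of B cells, 7.57% of cells held an Epcam UMI. DC cluster 20 stood apart in the same way, with Epcam at 21.9 CPM or 14.8% of its tumor level and the 6 other genes at 4.05% to 5.89% of theirs.

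Wfdc2, Rhox5 and Hmga2 had the highest pooled tumor cell levels of the 9 genes and were the most even between mice. Krt18 was above Rhox5, though, in stress mouse 1 and, pooled, in tumor clusters 5, 6 and 7. Wfdc2 reached 944, 962 and 912 CPM in tumor cells of control mice and 951, 978 and 799 CPM in those of stress mice. Rhox5 reached 523, 573 and 509 CPM in control mice and 535, 583 and 491 CPM in stress mice. Hmga2 reached 1088, 1111 and 1046 CPM in control mice and 931, 993 and 1024 CPM in stress mice. The groups overlapped for Wfdc2 and Rhox5, and for Hmga2 every stress mouse lay below every control mouse. A copy of it, Hmga2-ps1, held 8805 UMIs in tumor cells against 878338 for Hmga2, so the count of the gene is slightly uncertain where reads match both. Hmga2 also overlaps the antisense genes 1700006J14Rik and 9230105E05Rik.

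In the order of class means, tumor cells came first for Krt18, Cldn6, Wfdc2, Rhox5 and Hmga2. M-MDSCs came next for all of these but Krt18, where HSCs stood between them. The Krt18 mean of HSCs (417 CPM ± 448) rested on few cells, and pooled over mice Krt18 was lower in HSCs than in M-MDSCs. For Krt19 M-MDSCs (71.6 CPM ± 30.7, SD, n = 6 mice) and tumor cells (70.7 CPM ± 23.5) were at the top with overlapping ranges. Epcam was highest in HSCs (166 CPM ± 220), followed by tumor cells (145 CPM ± 32.2), again with overlap. That HSC mean rested on 100 UMIs, 77 of them in 8 cells, and weighs mice of 6 to 50 cells alike. Pooled over mice, Epcam was lower in HSCs than in tumor cells. Most neighbours in these orders overlapped between their lowest and highest mouse. The exceptions were HSCs above monocytes for Krt8 and M-MDSCs above DCs for Rhox5 and Hmga2.

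Every class outside the tumor held UMIs of the tumor genes, and outside HSCs 6 of these genes lay at like shares of their tumor level within a class. Krt18, Krt19, Cldn6, Wfdc2, Rhox5 and Hmga2 lay at 84.8% to 102% of their tumor level in M-MDSCs, at 41.7% to 60.4% in DCs, at 25.6% to 36.7% in NK/T cells and at 22.5% to 36.0% in ECs. In inflammatory myeloid cells the range was 20.4% to 25.2%, in monocytes 13.9% to 18.1% and in neutrophils 6.0% to 11.7%. HSCs were the exception, with 6.75% to 52.6%. All these shares pool the UMIs of 6 mice, which differed widely. By mouse Wfdc2 ran from 70.8 to 601 CPM in inflammatory myeloid cells, and Hmga2 from 9.51 to 558 CPM in neutrophils. The pooled shares also differed far more between the clusters of a class than between genes. EC clusters 2 and 8 lay at 3.65% to 7.1%, while EC cluster 16 reached 62.9% to 102%. DC cluster 20 lay at 4.05% to 5.89% and DC cluster 19 at 61.8% to 90.7%. The share of cells called doublets was 63.1% in M-MDSCs, 47.3% in EC cluster 16 and 36.8% in DC cluster 19, against 1.40% in EC cluster 2, 2.25% in EC cluster 8 and 2.19% in DC cluster 20. High levels also stood beside few doublets, at 17.3% to 41.9% of the tumor level in EC cluster 15, with 2.78% doublets, and in the inflammatory myeloid cells above, with 2.19%. The part of doublets and of free RNA in these levels was not tested. EC clusters 24 and 27 had 89.1% and 57.5% doublets and low levels, at 1.74% to 7.01%.

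**Figure D2:**
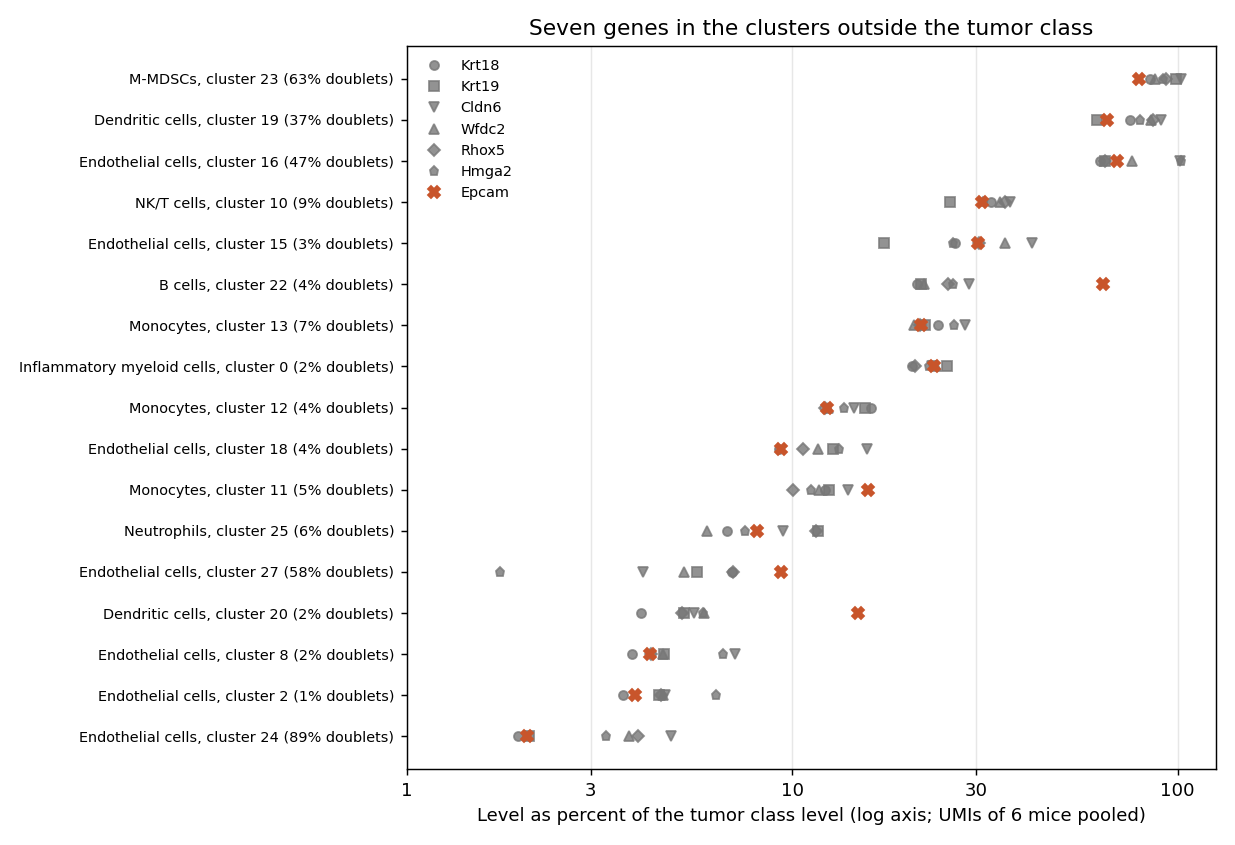
Level of 7 genes in each cluster outside the tumor class, as percent of the level in the tumor class (log axis, UMIs of 6 mice pooled), with the share of called doublets beside each cluster and HSC cluster 26 left out. Most clusters keep the 6 grey genes close together, and Epcam (orange cross) lies furthest from them in B cells (64.1%) and in DC cluster 20 (14.8%).

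Cell by cell the genes kept the same order as in the sums. A UMI of Hmga2 was found in 97.9% of tumor cells, of Wfdc2 in 97.6%, of Rhox5 in 96.5%, of Krt18 in 94.3%, of Epcam in 87.6%, of Cldn6 in 79.7%, of Krt19 in 65.0%, of Krt8 in 8.28% and of Cdh1 in 1.01%, all with the EC share as the background to read them against. In ECs, which should lack these genes, the shares were 19.7%, 20%, 13.8%, 11.1%, 7.57%, 8.13%, 5.05%, 0.682% and 0.315% in the same order. Median depth was 27716 UMIs in tumor cells and 4538 in ECs. With each cell thinned to 1000 UMIs, which left out 324 tumor cells and 610 ECs, Hmga2 was found in 58.0% of tumor cells and 7.60% of ECs, and Krt18 in 30.1% and 2.98%. Cdh1 was then found in 0.0512% and 0.0185% of cells. At that depth Cdh1 was held by 15 of 29314 tumor cells and 2 of 10823 ECs, too few to read a difference.

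A tumor cell held UMIs of 6.28 of the 9 genes on average, with mouse means of 6.05 to 6.56, and 92.9% of tumor cells held 5 or more. Of the other classes M-MDSCs came nearest, with a mean of 4.99 genes and 71.4% of cells at 5 or more. DCs followed with 18.9% of cells, then HSCs with 17.2%, and ECs had 6.35%. All 9 genes were missed in 110 tumor cells, of which 105 were in cluster 17. Cluster 17 had a median of 1852 UMIs per cell, against 10343 to 36299 in the other tumor clusters.

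Within the tumor class the 9 genes did not vary together. Hmga2 ranged from 735 to 1564 CPM over 9 clusters and fell to 179 CPM in cluster 21. Krt18 was highest in cluster 5 (622 CPM) and lowest in cluster 9 (236 CPM), and Krt19 was highest in cluster 6 (125 CPM) and lowest in cluster 1 (40.9 CPM). Krt8 was likewise highest in cluster 6 (9.98 CPM) and lowest in cluster 1 (2.73 CPM). Cldn6 ranged from 53.3 CPM in cluster 14 to 186 CPM in cluster 3. Epcam had the smallest ratio of highest to lowest cluster, from 101 CPM in cluster 17 to 185 CPM in cluster 5. Rhox5 ranged from 322 CPM in cluster 17 to 655 CPM in cluster 1, and Wfdc2 from 569.8 CPM in cluster 17 to 1277 CPM in cluster 21. Cdh1 stayed at or under 1.13 CPM in every tumor cluster and had no UMI in cluster 21. These clusters were drawn by the authors from the same counts, so the differences between them are a description.

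Cluster 21 (667 cells) was low in Hmga2 in each mouse, with 172, 279.6 and 178 CPM in control mice and 117, 185 and 207 CPM in stress mice. That was 12.4% to 25.1% of the Hmga2 level in the other tumor cells of the same mouse. Cldn6 lay at 24.8% to 69.9%, whereas Wfdc2 lay at 125% to 158% and Rhox5 at 88.2% to 158%. The long nuclear RNAs Malat1 and Neat1 were lower still, at 3.06% to 7.05% and at 1.16% to 6.14% of the other tumor cells. Pooled, Malat1 was at 204 CPM in cluster 21 and at 1884 CPM or more in the other clusters. The part of nuclear RNA content in the Hmga2 level was not tested.

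**Figure D3:**
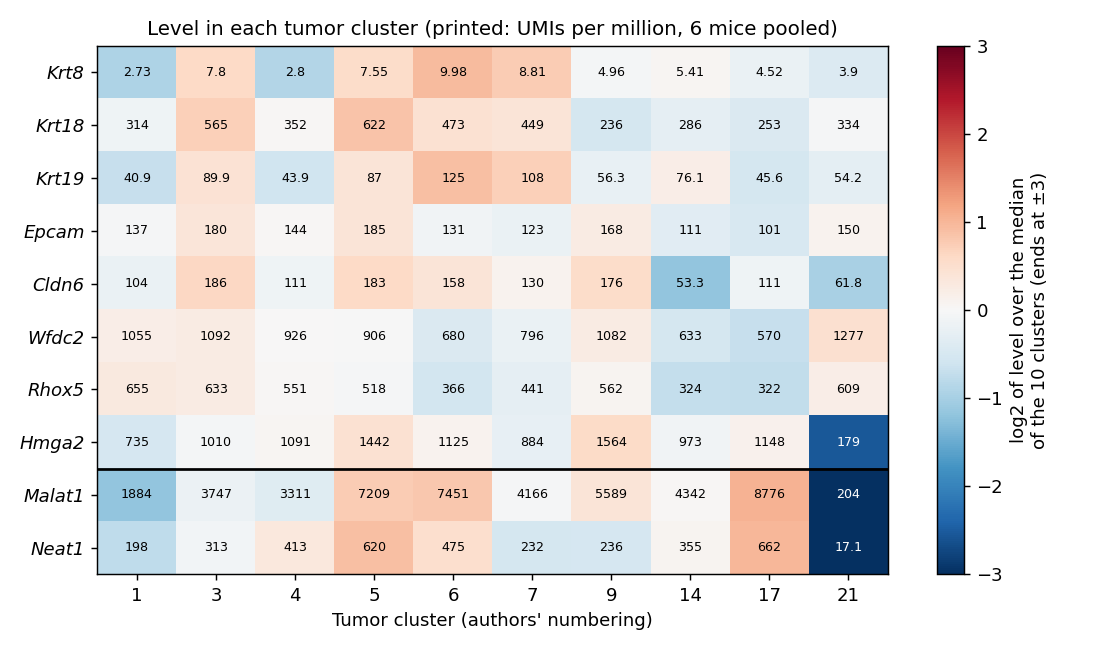
Levels of 8 of the 9 genes and of the nuclear RNAs Malat1 and Neat1 in the 10 tumor clusters (numbers are CPM, 6 mice pooled), colored by the log2 ratio to the median of the clusters with the scale ending at 3 either way. Cdh1, with no UMI in cluster 21, is left out. Cluster 21 holds the lowest Hmga2 (179), Malat1 (204) and Neat1 (17.1) values, and the highest Wfdc2 value (1277).

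Likeness between genes was measured as Pearson's r of log2(CPM + 1) over the 28 clusters, or over the 10 tumor clusters alone. The clusters share libraries and differ in depth, so r is given as a description. Over the 28 clusters, Wfdc2 and Rhox5 followed each other closely (r = 0.991), as did Krt18 and Krt19 (0.977). Krt8 correlated less with Krt18 (0.619), and Cdh1 ran opposite to Hmga2 (−0.373) and Wfdc2 (−0.435). Over the tumor clusters Krt8 was closest to Krt19 (0.962) and less close to its filament partner Krt18 (0.636), and Wfdc2 and Rhox5 again followed each other (0.959). Hmga2 followed none of the other 8 genes there above 0.635, its value with Cldn6.

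Among 12772 genes that reached 10 CPM in some cluster, Arhgef28, Fhod3 and Tfap2a were most like Hmga2 over the 28 clusters (r = 0.992 to 0.988). Pfdn1, Hddc3 and Fxyd4 were most like Wfdc2 (0.990 to 0.987), and Xlr3c, an X-linked germline gene, Pfdn1 and Hddc3 most like Rhox5 (0.985 to 0.983). Cldn6 was matched best by another claudin, Cldn9 (0.983), and Lncenc1 was also among its best matches. Krt18 was matched by Urah, Wwc1 and Rab34 (0.977 to 0.964), Krt19 by Urah, Rhobtb3 and Tpd52l1 (0.960 to 0.956) and Epcam by Ebpl, Rac3 and Ydjc (0.968 to 0.962). Krt8 had the lowest best match of the 9, Vasn (0.877), followed by Ltbp3 and Nupr1 (0.854). Cdh1 was matched by Carmil1 (0.918), Rnf180 and the MHC class II gene H2-Ab1 (0.852). Over the tumor clusters alone, with 4270 genes, the best matches were Ext1 for Hmga2 (0.996), Arf5 for Rhox5 (0.993), Tmem106c for Wfdc2 (0.990), Vps53 for Cldn6 (0.980), Tecr for Epcam (0.968), Anxa1 for Krt18 (0.945), Bop1 for Cdh1 (0.942), Ypel3 for Krt8 (0.931) and Bnip3l for Krt19 (0.901).

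The comparison of stress with control mice did not choose the genes and was tested. UMIs of tumor cells were summed per mouse, and all 18856 genes that passed a filter on low counts were fitted in edgeR (quasi-likelihood, TMM factors). P-values were adjusted over all genes by Benjamini-Hochberg, and 0.05 was the threshold. All 9 genes passed the filter. Of the 9, 2 were called, against a background of 21.4% of all genes tested, so the share called was near the background. DESeq2 called 3 of the 9, against 25.9% of all genes. In the direction of stress over control, 1 of the 9 was called higher (background 12%) and 1 lower (background 9.46%). Library sizes in place of TMM moved the median log2 fold change of all genes from −0.01 to 0.13, and the calls from 2258 higher and 1783 lower to 2710 higher and 605 lower.

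Cdh1 was the gene called higher. The control mean was 0.315 CPM ± 0.00640 and the stress mean 0.663 CPM ± 0.125 (SD, n = 3 each). The log2 fold change was 0.92 (SE 0.219, edgeR adjusted p = 0.0256). The sums behind it were 55, 47 and 51 UMIs in control mice and 75, 95 and 68 UMIs in stress mice, so the call rests on a gene close to absent from these cells. Without control mouse 1 or 3, or without stress mouse 2 or 3, its adjusted p was above 0.05 (highest 0.0960). UMIs of markers of the cell classes with a higher Cdh1 mean were also present in the tumor sums. For HSCs that mean rested on 8 cells without Col1a1 or Col3a1 UMIs, which these stellate markers thus do not mark. The summed level of 6 DC markers in tumor cells was 4.95 to 16.7 CPM in control mice and 6.20 to 20.3 CPM in stress mice, that of 7 stellate markers 1.95 to 4.78 CPM and 5.43 to 10.4 CPM, that of 7 monocyte and macrophage markers 9.04 to 18.2 CPM and 11.1 to 16.3 CPM, and that of 4 B cell markers 0.457 to 0.889 CPM and 0.730 to 0.967 CPM. No defining marker of these lists was at 0 in the pooled tumor cells, and none was called. Every other class also had a higher Cdh1 mean, and the remaining marker lists are given further below. Of the 7 endothelial markers 1 was called higher and 1 lower (background 12% and 9.46%). They summed to 21.5 to 27.0 CPM in control mice and 28.7 to 40.3 CPM in stress mice. The part of all these classes in the Cdh1 result was not tested.

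Hmga2 was the gene called lower. The control mean was 1081 CPM ± 33.0 and the stress mean 983 CPM ± 47.5 (SD, n = 3 each). The log2 fold change was −0.28 (SE 0.0828, edgeR adjusted p = 0.0482). It kept its direction in all 15 alternatives run and passed the threshold in 2 of them, with adjusted p from 0.00372 to 0.284. Leaving out any 1 of the 6 mice took it above 0.05 (0.0716 to 0.153). The make-up of the tumor class also differed between groups, with cluster 14 at 7.30% to 7.49% of tumor cells in control and 3.75% to 4.03% in stress mice, and the shares of the other 9 clusters overlapping. Its part in the results over all tumor cells was not tested.

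The other 7 genes did not pass the test in tumor cells. Krt19 (83.8 CPM ± 26.9 in control and 57.5 CPM ± 11.4 in stress mice, SD, n = 3 each) gave a log2 fold change of −0.68 (SE 0.275, edgeR adjusted p = 0.113). Control mouse 2 was as low as the stress mice, and without it Krt19 was called (log2 fold change −0.94, adjusted p = 0.0114). DESeq2 called it too (log2 fold change −0.71, adjusted p = 0.0339). Krt8 gave −0.76 (SE 0.357, adjusted p = 0.165). Krt18 gave 0.33 (SE 0.177, adjusted p = 0.215), although every stress mouse lay above every control mouse. Groups that did not overlap in CPM with stress above were found for 28.2% of all genes tested, and with stress below for 10.1%, so the separation of Krt18 and Cdh1 above and of Hmga2 below, 3 of 9 genes in all, was near the background. Epcam (−0.32, SE 0.238), Wfdc2 (−0.19, SE 0.111), Rhox5 (−0.14, SE 0.0963) and Cldn6 (−0.10, SE 0.110) had adjusted p of 0.261 to 0.550. With library sizes in place of TMM, Rhox5 and Cldn6 turned to 0.00 and 0.05.

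**Figure D4:**
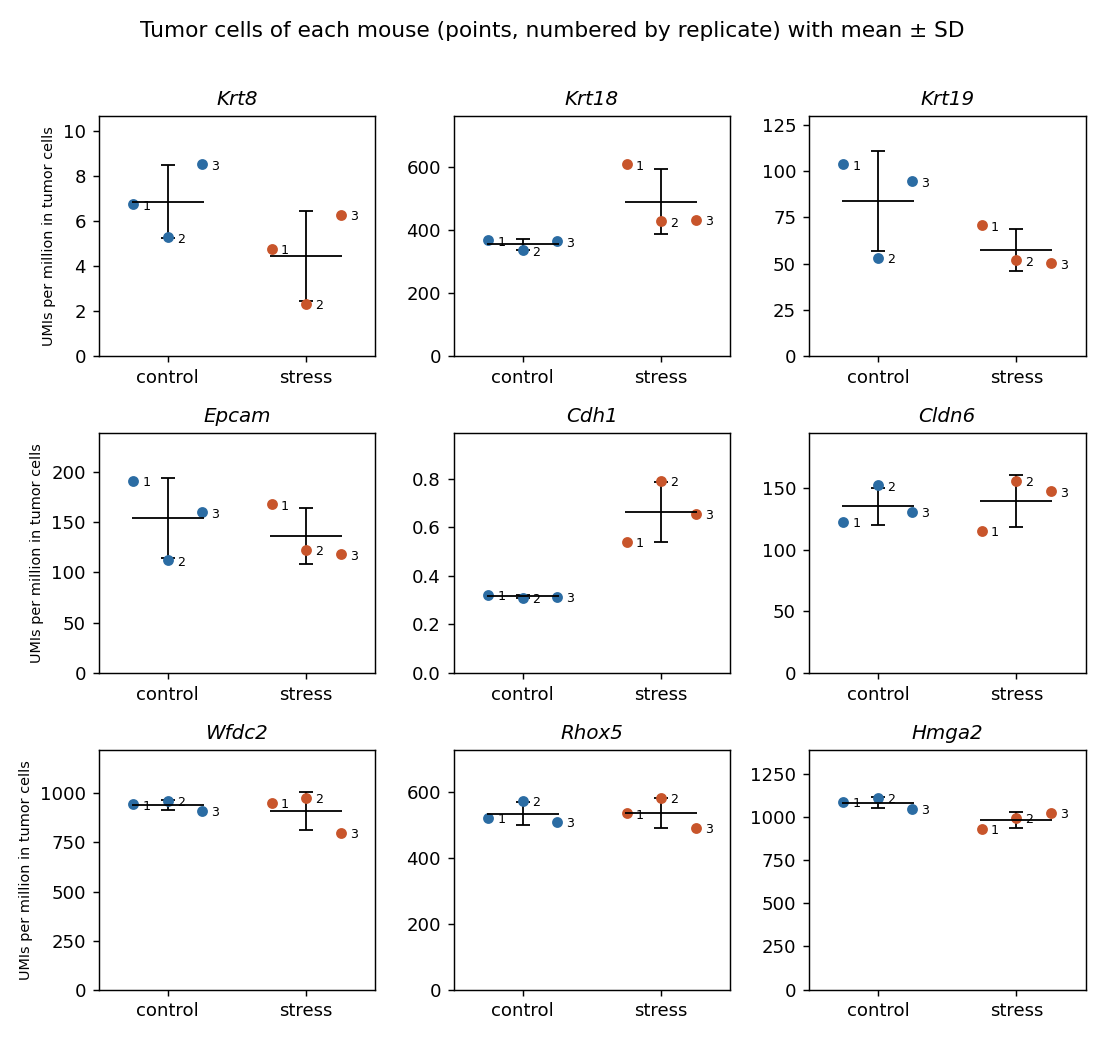
Level of each gene in the tumor cells of each mouse (CPM, axes from 0), with points numbered by replicate and black bars for the mean and SD of 3 mice. Krt18 and Cdh1 lie higher in every stress mouse than in any control mouse, Hmga2 lies lower, and the groups of the other 6 genes overlap.

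The 10 tumor clusters were then tested singly, which gave 81 tests of the 9 genes in 10 fits. They yielded 3 calls, with 21 tests under an unadjusted p of 0.05, against 23.3% of the tests of all genes in these fits. The background of all genes called was 14.6% in cluster 1, 3.11% in cluster 3, 14% in cluster 4, 2.05% in cluster 5, 1.17% in cluster 6, 3.48% in cluster 7, 9.17% in cluster 9, 6.71% in cluster 14, 2.01% in cluster 17 and 0.855% in cluster 21. Adjustment was over the genes of each cluster, not over clusters. In cluster 4 Cdh1 stood at 0.370, 0.429 and 0.308 CPM in control mice and at 1.2, 1.45 and 1.05 CPM under stress, on 9, 12 and 8 UMIs and 23, 35 and 13 UMIs. Its log2 fold change there was 1.70 (SE 0.330, edgeR adjusted p = 0.0134). Each control mouse had fewer UMIs than each stress mouse, so the filter on low counts may have admitted Cdh1 through the stress mice. The Cdh1 call in cluster 4 is therefore no support for a difference. In cluster 9 Krt8 stood at 7.23, 6.40 and 5.16 CPM in control mice and at 3.16, 1.88 and 3.51 CPM under stress (log2 fold change −1.14, SE 0.288, edgeR adjusted p = 0.0410). In cluster 14 Krt8 stood at 5.82, 4.25 and 10.0 CPM in control mice and at 2.34, 0.974 and 1.5 CPM under stress (log2 fold change −2.11, SE 0.442, edgeR adjusted p = 0.0230). Stress mice lay below control mice without overlap in both clusters, on 5 to 29 Krt8 UMIs per stress mouse. Krt8 lay so in 5 of the 10 tumor clusters. The share of all genes without overlap within clusters was not counted. Neither that count nor the separation in clusters 9 and 14 is therefore support for a difference. All 3 calls depended on single mice. Cdh1 in cluster 4 was above 0.05 without control mouse 1 or 3 or stress mouse 2 (highest adjusted p 0.0739), and Krt8 in cluster 14 without control mouse 1 or 3 or stress mouse 2 or 3 (highest 0.0931). Krt8 in cluster 9 stayed under 0.05 only without control mouse 2 (highest 0.125).

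Estimates mostly kept 1 sign across clusters, and most of them did not pass the test. Hmga2, Wfdc2, Epcam and Krt19 had log2 fold changes below 0 in 10 of 10 clusters, with medians of −0.20, −0.12, −0.27 and −0.69. Krt8 had them below 0 in 8 of 8 clusters where it was tested (median −0.80) and Cdh1 above 0 in 3 of 3 (median 0.68). Cdh1 passed the filter on low counts in only these 3 of the 10 clusters. Krt8 did not pass it in clusters 17 and 21, where its means went opposite ways. They were 3.58 CPM in control and 6.31 CPM in stress mice in cluster 17, and 5.17 and 2.38 CPM in cluster 21. A filter on counts can admit a gene through the group where it is high. The counts of signs for Krt8 and Cdh1 are therefore no support. Krt18 had log2 fold changes above 0 in 9 of 10 clusters (median 0.28). Rhox5 had them below 0 in 9 of 10 (median −0.08), and Cldn6 was split, with 4 above 0 and 6 below (median −0.05). With library sizes in place of TMM the count below 0 was 9 of 10 for Hmga2, 8 of 10 for Wfdc2, 7 of 10 for Rhox5, 5 of 10 for Cldn6 and 7 of 8 for Krt8, with RLE factors it was 9 of 10 for Wfdc2, and the other counts were as given. The clusters come from the same 6 mice and are not independent of each other or of the sum.

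**Figure D5:**
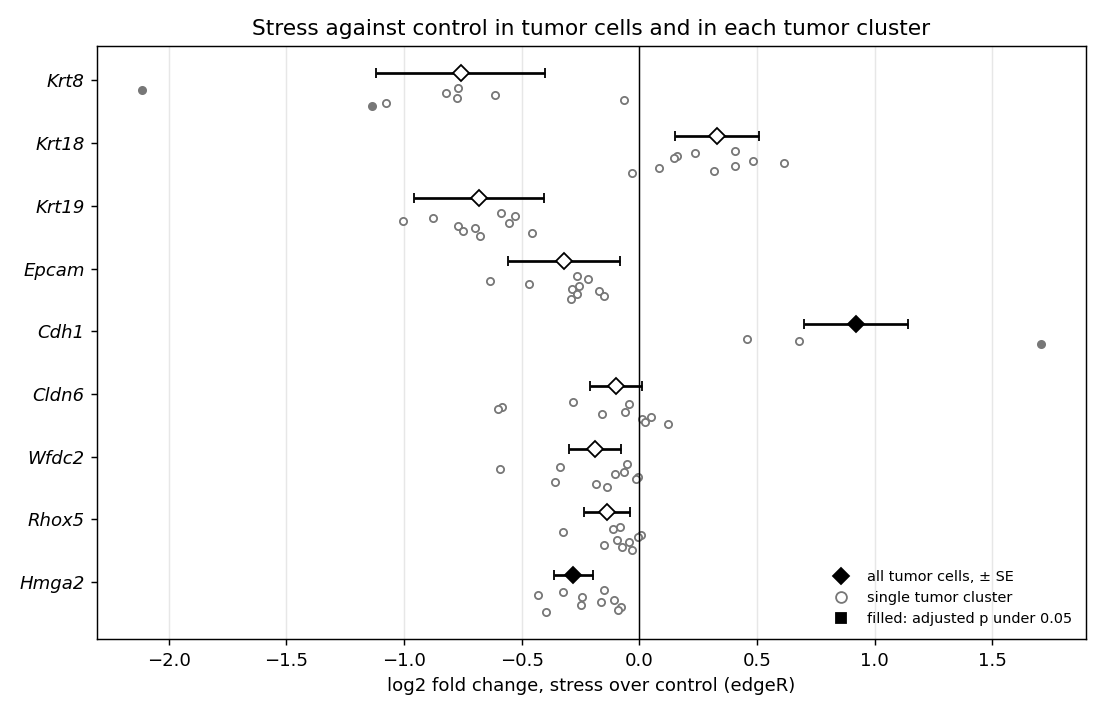
log2 fold change of stress over control for the 9 genes in all tumor cells (black diamonds with SE) and in single tumor clusters (grey circles), filled where the edgeR adjusted p was under 0.05. Filled marks are Cdh1 (0.92) and Hmga2 (−0.28) in all tumor cells, Cdh1 in cluster 4 (1.70), and Krt8 in clusters 9 (−1.14) and 14 (−2.11). The Cdh1 mark of cluster 4 is no support, as the filter on low counts may have admitted it through the stress mice.

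In the 7 other classes with at least 10 cells per mouse, 55 tests of the 9 genes gave 0 calls in edgeR, with 9 under an unadjusted p of 0.05 (12.2% of the tests of all genes), and 1 call in DESeq2, Krt8 in monocytes as above. The background of all genes called was 0% in inflammatory myeloid cells, 0.122% in monocytes, 0.213% in ECs, 0.483% in B cells, 0.561% in M-MDSCs, 0.857% in NK/T cells and 2.64% in DCs. Hmga2 and Krt19 had log2 fold changes below 0 in 7 of 7 classes, from −1.04 to −0.23 and from −1.09 to −0.55. Wfdc2 was also below 0 in 7 of 7 (−0.63 to −0.01; 6 of 7 with library sizes in place of TMM), and Rhox5 in 6 of 7. The other genes were mixed, with Epcam and Cldn6 below 0 in 5 of 7, Krt18 in 3 of 7, Krt8 in 2 of 3 and Cdh1 in 0 of 3. With library sizes in place of TMM the count below 0 was 6 for Cldn6, 4 for Krt18 and 1 for Cdh1. None of these estimates passed the edgeR test. The classes come from the same 6 mice and are not independent of each other. The make-up of classes also differed between groups. DC cluster 19, where the tumor genes were high, made up 59.5% to 74.7% of DCs in control mice and 36.7% to 49.6% in stress mice, and within it Hmga2 overlapped between the groups (means of 820 and 764 CPM). EC cluster 15 made up 1.73% to 5.35% of ECs in control mice and 11.3% to 23.1% in stress mice. The part of this make-up in the class estimates was not tested.

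Related genes give the surroundings of the 9 in tumor cells, from lists chosen with earlier results in view. The median log2 fold change of all genes was −0.01, and 12% of all genes were called higher and 9.46% lower, the background for each count of this and the next 2 paragraphs. Of 13 tested keratin and desmosome genes 1 was called higher, the plakophilin Pkp1 (log2 fold change 0.95, edgeR adjusted p = 0.0354), and none lower (list median −0.16). Of 17 adherens and tight junction genes 6 were called higher and 1 lower (median 0.07). Cldn14 (2.59), Ocln (2.31), Cgn (1.79) and Cdh3 (1.56) had the largest changes, and each of them lay under 0.4 CPM in the pooled tumor cells. Ctnna1, which links cadherins to actin, was the most abundant of that list at 181 CPM.

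Of 15 tested genes of the epithelial program, which includes epithelial transcription factors and surface proteases, 2 were called higher and 2 lower (median 0.03), against 12% and 9.46% of all genes. St14 (2.81) and its inhibitor Spint2 (1.32) were higher, and Elf3 (−0.58) and the tricellular junction receptor Lsr (−0.48) were lower. Of 12 mesenchymal genes 2 were called higher, the matrix gene Fn1 (log2 fold change 0.97, from 394 CPM ± 49.3 in control to 855 CPM ± 348 under stress, edgeR adjusted p = 0.0328) and the transcription factor Twist2 (1.23), and none lower (median −0.14).

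Hmga2 belongs to an oncofetal circuit in which the RNA-binding protein Lin28b holds back let-7 microRNAs that repress Hmga2 and Igf2bp genes. In this list of 11 tested genes, 2 were called higher and 2 lower (median 0.19), with the same background. Lin28b rose from 1.18 CPM ± 0.257 to 2.49 CPM ± 0.102 (log2 fold change 0.94, edgeR adjusted p = 0.0207) and the relative Hmga1 from 18.3 CPM ± 0.865 to 31.9 CPM ± 4.12 (0.65, adjusted p = 0.00645). Igf2bp2 (−0.33) and Plag1 (−0.62) fell. Afp, a fetal serum protein and a marker of liver tumors, was the most abundant of the list at 76.5 CPM. Of 10 tested germline and embryonic genes related to Rhox5, 3 were called higher, Ddx4 (2.47), Nanog (2.30) and Rhox6 (1.61), all under 0.4 CPM, and 2 were called lower, Dppa4 (−0.55) and Tex19.1 (log2 fold change −0.58, from 126 CPM ± 20 in control to 92.4 CPM ± 4.83 under stress, adjusted p = 0.0174).

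Markers of other cell types were also counted in tumor cells, and their sums were low except for the cholangiocyte list. The summed level of 7 endothelial markers was 21.5 to 27.0 CPM in control mice and 28.7 to 40.3 CPM in stress mice, with Pecam1 called higher (log2 fold change 1.5, edgeR adjusted p = 0.00442) and Eng, at 7.14 CPM the most abundant, called lower (−0.46), with the background of 12% and 9.46% as above. The sum of 18 hepatocyte markers was 3.40 to 4.82 CPM and 3.40 to 4.45 CPM, that of 5 neutrophil markers 7.74 to 23.5 CPM and 4.86 to 49.9 CPM, that of 6 NK and T cell markers 0.469 to 2.98 CPM and 1.01 to 5.06 CPM, and that of 4 erythroid markers 0.788 to 33.9 CPM and 0.376 to 1.78 CPM. The 9 cholangiocyte markers, of which Krt19 and Epcam are members of the set, summed to 758 to 1072 CPM and 954 to 1248 CPM. Most of this was Spp1 at 741 CPM, and 6 of the 9 markers lay under 1 CPM. Of the 6 tested, 1 was called higher. The part of these cells in the values above was not tested.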

How the data were processed

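Tumor tissue of 3 control and 3 stress mice was measured by 10x Genomics single-cell RNA sequencing. The authors deposited UMI count tables per mouse and an annotation of cells by cluster and class. They counted reads with Cell Ranger (mm10), removed doublets with Scrublet and low-quality cells, and clustered with Seurat after Harmony integration, and those classes were used as deposited. UMIs were summed per mouse and class or cluster, for units with at least 10 cells in every mouse. The test was edgeR's quasi-likelihood test (version 4.0.16, R 4.3.3) after filterByExpr and TMM, with Benjamini-Hochberg adjustment over all genes and a threshold of 0.05, and DESeq2 1.42.0 was an alternative. Neutrophils and HSCs had too few cells to be tested. Nothing in the labels ties a library to more than 1 mouse, and p-values measure the spread between these 6 samples. Doublets were called again with Scrublet in scanpy 1.11.5, and cells were thinned to 1000 or 3000 UMIs. Counts were also simulated with the tumor cell depths (18887 genes) and a dispersion, the spread between mice beyond counting noise, of 0.02. Of 100 genes changed by a log2 fold change of 1, 91 were called, and of 100 changed by 0.5, 20 were, with 7 false calls. These shares do not hold for genes that spread more between mice.

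The 9 members and all gene lists were chosen with earlier results of these data known. Named genes were the 9, up to 4 called genes of each related list by size of change, the 3 most similar genes by correlation, and the top gene of each marker list. Krt7, Krt80, Ctnna1, Afp, Dppa4, Malat1, Neat1, Pecam1 and the markers in Krt8-bearing cells were named after their values were seen. Some genes that these rules or counts take in are not reported here by name. Promoter windows are from RefSeq and gene positions from GENCODE M21 (GRCm38).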

Additional observations from a re-analysis of the deposited data

Results flagged for a closer look

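All 9 genes had UMIs in the barcodes that the authors' annotation leaves out, which no comparison above uses. Krt18 is given because only for it did every stress mouse lie above every control mouse there. In these 264 to 549 barcodes per mouse its level was 203, 248 and 201 CPM in control mice and 409, 319 and 305 CPM in stress mice, with a mean of 344 CPM in stress mice. Krt19 lay the other way there, at 43.3, 42.3 and 53.4 CPM in control mice and 40.5, 34.1 and 30.1 CPM in stress mice. Neither difference was tested, and the share of all genes without overlap in these barcodes was not counted. Krt18 was picked by this separation, which is therefore no support for a difference.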

How the results depend on the processing

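In tumor cells, leaving out a mouse gave 1191 to 5790 genes called (4041 with all mice; lowest without control mouse 3, highest without control mouse 2) and 0 to 2 of the 9 genes. Thinning cells to 3000 UMIs gave 966 genes and none of the 8 members tested (Cdh1 did not pass the filter). DESeq2 called 3 of the 9. RLE normalization, library size only, no filter on low counts, no called doublets, equal cell numbers and leaving out clusters 17 and 21 (chosen after seeing the data) each called 1. The share of all genes called was 21.1%, 17.6%, 14.4%, 21.7%, 19.2% and 20.7% in these settings, in the same order. It was 25.9% with DESeq2, 7.25% after thinning and 6.14% to 29.9% with a mouse left out. Within tumor clusters the 3 calls became 5 with library size only, 14 with no filter and 11 with DESeq2, and 0 to 15 with a mouse left out, where the share of all tests called went from 6.34% to 5.53%, 6.06%, 8.21% and 1.83% to 13.9%. In the other classes the 0 calls became 5 with no filter and 1 with DESeq2, and 0 to 1 with a mouse left out, and the share of all tests called went from 0.689% to 1.57%, 1.62% and 0.265% to 0.954%. Library size only turned the log2 fold changes of Cldn6 to 0.0476 and Rhox5 to 0.0040, and no other direction of the 9 genes in tumor cells changed in any alternative that tested it. The causes were not tested.

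With the replicate number as a block, 4 of the 9 genes were called in tumor cells (Krt8, Krt19, Cdh1 and Hmga2), 12 within clusters and 4 in other classes, against 27.1%, 9.43% and 1.86% of all tests. Same-numbered mice correlated at 0.496, 0.390 and −0.130 in their deviations from the group means. Differently numbered mice correlated at −0.564 to 0.330. So few values cannot decide whether the numbers pair the mice, and the main test did not use the numbers.

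Depth limits Cdh1 most, with 391 UMIs in all tumor cells, and each group has 3 mice.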
